A study of Mus musculus with 6 samples.

Results

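The 4 Hox clusters of the mouse genome were examined in the testis: HoxA at chr6:52150000-52265000, HoxB at chr11:96190000-96370000, HoxC at chr15:102915000-103040000 and HoxD at chr2:74660000-74770000, all in the build GRCm38. Members were the cytosine positions inside these boundaries that had at least 10 reads in each of 6 libraries, a choice that used neither methylation nor group. That left 2790 positions of 952515 in all: 787 in HoxA, 681 in HoxB, 405 in HoxC and 917 in HoxD. The assay was reduced representation bisulfite sequencing (RRBS): DNA is digested with MspI at CCGG sites and bisulfite turns unmethylated cytosine into uracil, so that the share of reads still showing cytosine gives the methylation level. The samples were right testes of mature male mice of the KM strain, with no genotype beyond the strain and no age in weeks given. In the 3 hemicastrated mice the left testis had been taken out before puberty, and the 3 sham mice had sham surgery at the same time. Each mouse gave 1 library, so the spread between libraries is the spread between mice together with that of library preparation.

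Hox genes encode homeodomain transcription factors that set positional identity along the body axis. Within a cluster they lie in the order of their paralog groups, and in embryos they are switched on in that order. In most cells where they are silent they are held so by Polycomb complexes, which act on histones, and the clusters belong to the long CpG-rich domains known as DNA methylation valleys, where DNA stays largely free of methylation. In the testis, germ cells make up most of the tissue, with Sertoli, Leydig and peritubular cells beside them. A level in whole testis is the share of methylated DNA copies over all these cells, so a different share of a cell type and a different methylation within cells cannot be told apart.

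The promoters at the ends of the range of Hox gene levels are shown here. They were picked for level and not for CpG content, and a link between these was not tested. Each is the stretch of 250 bases before the RefSeq gene start furthest upstream in GRCm38.p6. It is written 5′ to 3′ on the plus strand, with every CG in capitals. Hoxd4 (chr2:74721728-74721977) had the most methylated window of any Hox gene, and Hoxd8 (chr2:74704365-74704614) had the least methylated one.
Hoxd4: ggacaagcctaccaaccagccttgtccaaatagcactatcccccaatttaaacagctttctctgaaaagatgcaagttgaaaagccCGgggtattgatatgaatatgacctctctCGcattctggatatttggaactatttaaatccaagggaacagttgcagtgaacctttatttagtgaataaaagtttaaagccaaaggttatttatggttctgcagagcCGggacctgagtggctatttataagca
Hoxd8: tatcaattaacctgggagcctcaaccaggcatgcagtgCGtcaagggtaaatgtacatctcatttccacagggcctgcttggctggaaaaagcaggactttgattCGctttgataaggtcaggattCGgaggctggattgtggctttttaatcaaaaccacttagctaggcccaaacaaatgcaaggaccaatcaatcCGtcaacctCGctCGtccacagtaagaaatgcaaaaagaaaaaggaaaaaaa
The Hoxd4 stretch holds 3 CG and 2 CCGG, and 71.0% of all promoters of this length hold at least as many CG. The Hoxd8 stretch holds 6 CG and no CCGG, with 50.4% of promoters holding at least as many. Both motifs read the same on both strands, and every CCGG contains a CG. A CCGG was present in 14 of the 19 Hox promoters listed and in 47.1% of all 32851 promoters, and the median number of CG was 13 for Hox and 6 for all. The 3 measured positions of the Hoxd4 window lie outside its printed stretch, 1, 114 and 142 bp past the start.

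MicroRNA genes lie between the Hox genes, and those of the miR-196 family are known to repress Hox messenger RNAs. The mature sequences of the 3 microRNA genes with measured windows are given from RefSeq (GRCm38.p6), 5′ to 3′. The seed, bases 2 to 8, is in capitals, because members with the same seed had windows of different mean level.
mmu-miR-196a-5p: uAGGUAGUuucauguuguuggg
mmu-miR-196b-5p: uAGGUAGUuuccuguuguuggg
mmu-miR-615-3p: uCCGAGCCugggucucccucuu
Both miR-196 sequences share the seed AGGUAGU. The first is encoded in HoxB by Mir196a-1 (chr11:96265187-96265208, plus strand), and in HoxC by Mir196a-2, whose window was not measured. The second is encoded in HoxA by Mir196b (chr6:52230129-52230150, minus strand), and miR-615 in HoxC by Mir615 (chr15:103014969-103014990, plus strand).

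The libraries held 64504011 to 78630942 methylation calls each, of which 159694 to 199239 fell in the Hox clusters. Positions in the clusters had a median of 50 reads, with library medians of 44 to 55. The apparent methylation of mitochondrial DNA, which carries next to none, was 0.478% to 0.617%, which sets the level below which conversion failure and methylation are hard to separate. Pearson's r between libraries across Hox positions, which are not independent replicates, was 0.911 to 0.944 within groups and 0.903 to 0.936 between groups.

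All 4 clusters were almost free of methylation in every mouse. HoxA had a mean level of 2.30%, 2.43% and 2.12% in hemicastrated replicates 1 to 3 and 2.51%, 2.20% and 2.13% in sham replicates 1 to 3. HoxB had 4.63%, 4.33% and 4.34% in hemicastrated mice and 4.66%, 4.89% and 4.69% in sham mice. HoxC had 5.61%, 4.83% and 5.31% in hemicastrated mice and 4.91%, 6.0% and 5.04% in sham mice. HoxA was thus the lowest cluster in each of the 6 libraries, and HoxC varied most between mice. HoxD had 3.35%, 3.32% and 3.40% in hemicastrated mice and 3.65%, 3.73% and 3.70% in sham mice. Over all members the mean of the 6 libraries was 3.69%.

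The DNA around the clusters was more methylated. The mean level in the 200 kb on either side was 11.1% around HoxA, 18.2% around HoxB, 18.3% around HoxC and 10.6% around HoxD, and the rest of the genome stood at 29.9%. Within libraries, the clusters together differed from their flanks by -10.9 points and from the rest of the genome by -26.2 points, lower in 6 of 6 libraries (exact two-sided sign-flip permutation test, p = 0.03125, the smallest that 6 libraries allow, with a Benjamini-Hochberg adjusted p of 0.03125 over the family). Taken one by one, the clusters differed from their own flanks by -8.86 points for HoxA, -13.6 for HoxB, -13 for HoxC and -7.06 for HoxD, each lower in 6 of 6 libraries. Here and below, the sign-flip test asks only whether a difference recurs across libraries. It does not ask how Hox DNA stands among other regions like it. The plot of levels per library shows the separation.

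**Figure D1:**
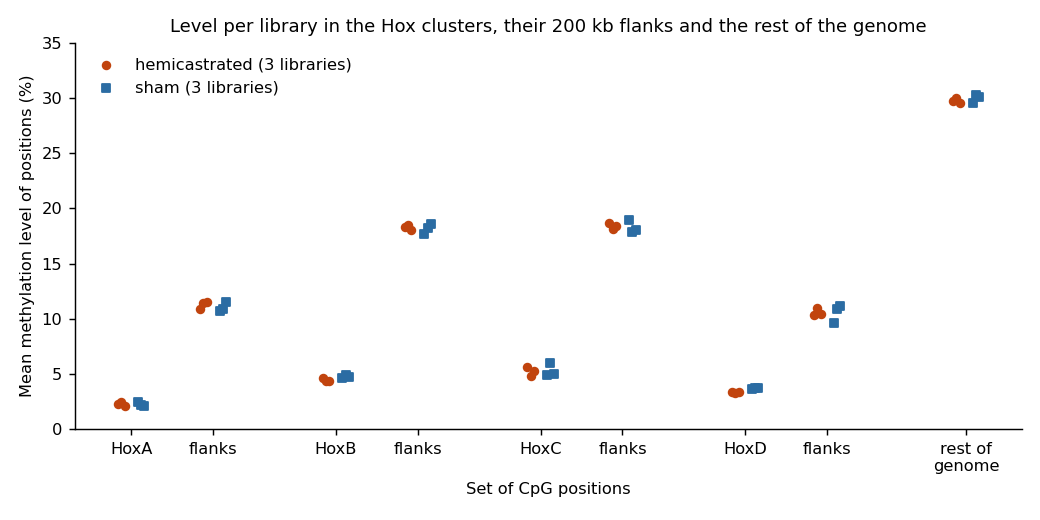
Mean methylation level in percent (y axis) of the measured positions of each Hox cluster, of the 200 kb on either side of it and of the rest of the genome (x axis). Each point is 1 library, hemicastrated circles left of sham squares; every cluster lies below its flanks, and the rest of the genome lies near 29.9%.

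The clusters differed among themselves by less than they differed from their flanks. HoxB was 2.31 points above HoxA, HoxC 3.0 points above HoxA and HoxD 1.24 points above HoxA, while HoxD differed from HoxB by -1.07 points and from HoxC by -1.76 points, each in the same direction in 6 of 6 libraries (exact two-sided sign-flip permutation test, p = 0.03125, adjusted p = 0.03125 over 6 pairs). HoxC was 0.692 points above HoxB by the same test, but -1.06 points from it with at least 20 reads a position and -0.239 points from it with positions weighted by reads, so the order of these 2 neighbours is not settled.

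The median Hox position was at 1.02%, close to the 1.06% of all other positions. What set the clusters apart was the near lack of methylated positions. Only 48 Hox positions (1.72%) were at 50% or more, against 31.1% of the rest of the genome, and 2685 (96.2%) were under 15%, against 64.0%. Of those 48, 24 lay in HoxB, 12 in HoxC, 10 in HoxD and 2 in HoxA. No methylated read in any library was seen at 406 Hox positions (14.6%), a share near the 14.4% elsewhere.

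Tiles of 500 bp with at least 3 positions gave the same picture. Such tiles numbered 180 in the clusters, 54 in HoxA, 52 in HoxB, 35 in HoxC and 39 in HoxD, and 20 further tiles with 32 positions held too few. A level under 15% was found in 165 of the 180 (91.7%), against 40.0% of all 71235 tiles. Only 9 Hox tiles lay at 15% to under 50% and 6 at 50% or more, and these 15 had 3 to 16 positions each.

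CpG-dense DNA is less methylated in general, so Hox tiles were set against all other tiles with a like number of positions. Only measured positions were counted, so the number also depends on RRBS coverage and is a rough stand-in for CpG density. Tiles with 3 to 9 positions averaged 12% in the Hox clusters and 65.2% elsewhere, and those with 10 to 19 positions averaged 2.87% and 39.1%. In the class of 3 to 9 positions 81.8% of 77 Hox tiles were under 15%, against 20.5% of 42999 other tiles. The gap narrowed as measured positions rose, to 1.91% against 9.56% for 20 to 39 positions and 0.799% against 1.57% for 40 or more. In every class the Hox mean was lower in 6 of 6 libraries (exact two-sided sign-flip permutation test, p = 0.03125, adjusted p = 0.03125). The medians over tiles went the other way in the classes with most positions. They were 0.847% in Hox tiles against 0.565% elsewhere for 20 to 39 positions and 0.645% against 0.519% for 40 or more. The difference was therefore one of means in tiles with 20 or more measured positions, and of both means and medians in those with fewer.

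**Figure D2:**
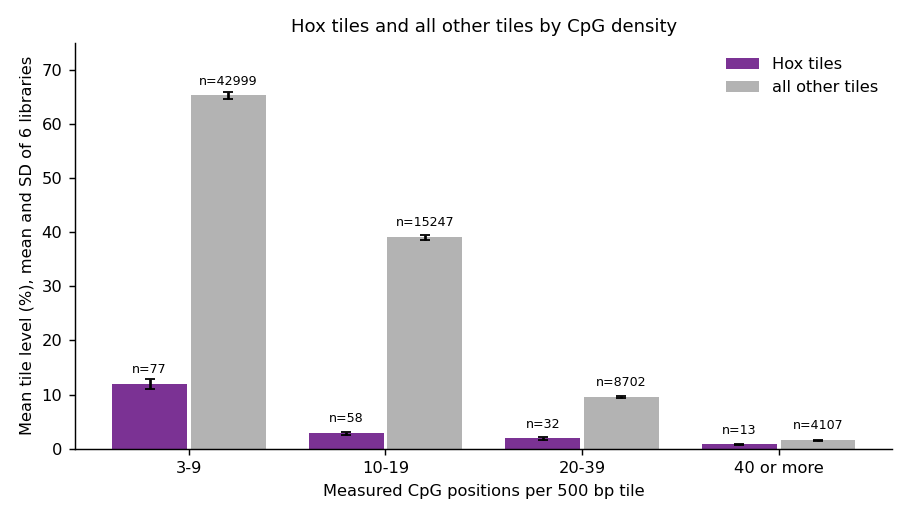
Mean level of 500 bp tiles in percent (y axis; bars and error bars are the mean and SD of 6 libraries) by the number of measured CpG positions in the tile (x axis), for Hox tiles and all other tiles, with the number of tiles above each bar. In tiles of 3 to 9 positions Hox DNA averaged 12% and other DNA 65.2%.

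Each cluster held a run of successive measured tiles that were all under 15%, and the longest of each is given here. Such runs were low in methylation and not free of it. In HoxA, 36 measured tiles with 609 positions lay in a run of 49.5 kb (chr6:52211501-52261000) that spans Hoxa7, Hoxa9, Hoxa10, Hoxa11 and Hoxa13, with a mean tile level of 1.39% and no tile above 5.65%. Hoxa13, Hoxa11 and Hoxa10, at its posterior end, pattern the distal limb and the reproductive tract. The run in HoxB was 55.5 kb long (chr11:96311501-96367000) with 14 tiles and covered Hoxb4 and Hoxb2, at a mean of 2.95%. The HoxC run was the shortest, 18.5 kb around Hoxc11 (chr15:102949501-102968000), with 8 tiles at a mean of 5.97% and a highest tile of 14.1%. Of the tiles within these runs, 36 of 99 were measured in HoxA, 14 of 111 in HoxB and 8 of 37 in HoxC. Their longest unmeasured gaps were 5 kb, 12 kb and 7 kb.

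The longest run was in HoxD, 70 kb from before Hoxd13 into Hoxd3 (chr2:74667001-74737000), with 26 measured tiles, 682 positions and a mean of 2.56%. RRBS sees only part of such a run: 26 of its 140 tiles were measured, and its longest unmeasured gap was 15.5 kb. The 3 methylated positions at Hoxd4 lie within this run, in tiles with too few positions to be counted, so the run is a run of measured tiles and not of unbroken unmethylated DNA.

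**Figure D3:**
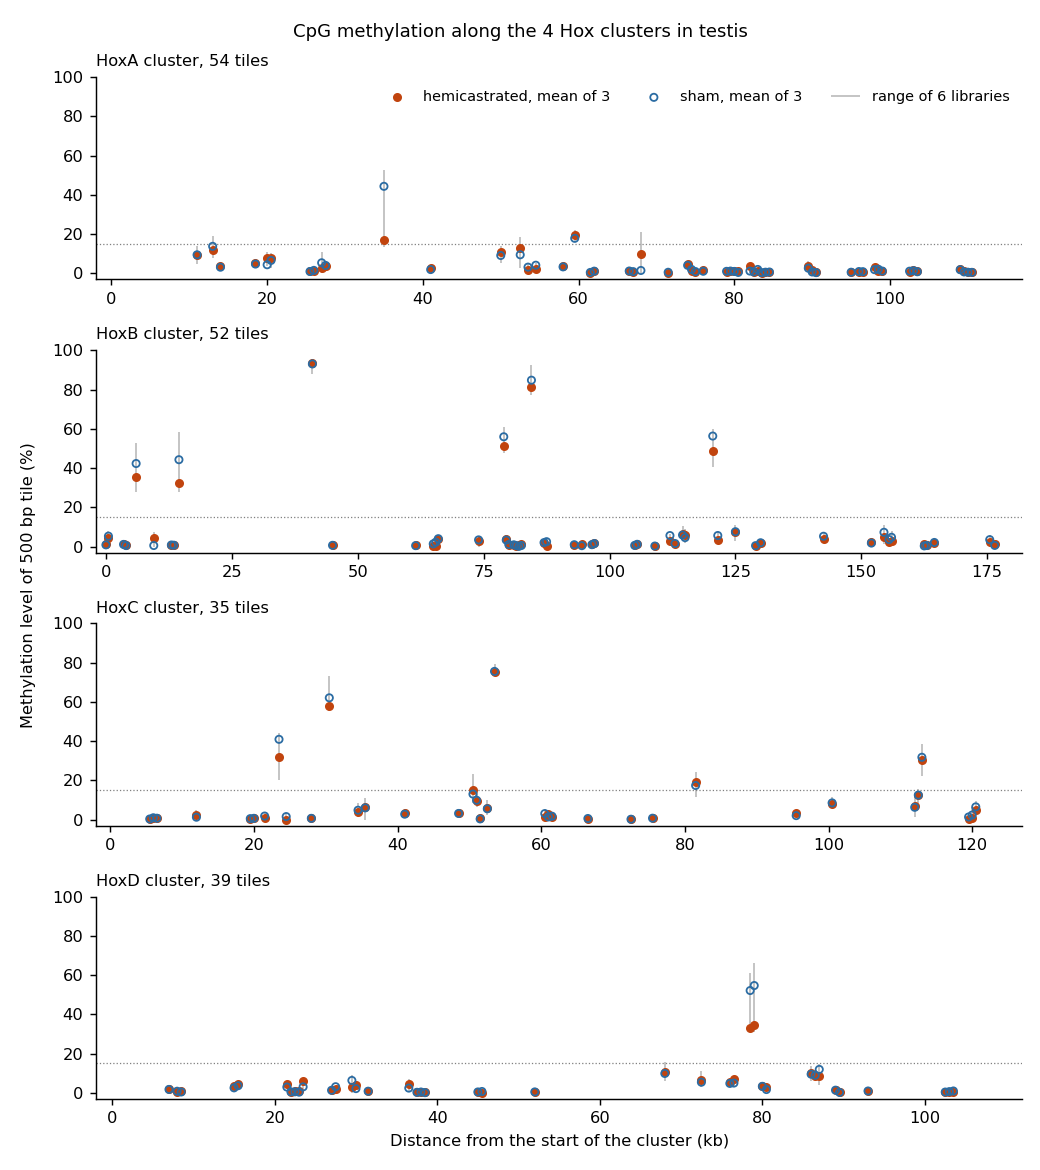
Methylation level of each measured 500 bp tile in percent (y axis) against its distance in kb from the start of the cluster (x axis). Filled points are hemicastrated means, open points sham means (3 libraries each), grey lines the range of the 6 libraries and the dotted line 15%; most tiles sit near 0, and a few stand out in each cluster.

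The methylated tiles of HoxB and HoxC differed in their place relative to genes. The highest was chr11:96231001-96231500 in HoxB, at 93.4%, which overlaps no gene and lies 34391 bp from Hoxb13. A tile inside Hoxb9 (chr11:96274501-96275000) was at 83.1%, one in the noncoding gene Gm51876 (chr11:96269001-96269500) at 53.6% and one in Hoxb3 (chr11:96310501-96311000) at 52.6%. The last tile lies 500 bp before the HoxB run of low tiles, whose first tile stood at 4.58%. In HoxC, a tile inside Hoxc10 (chr15:102968501-102969000) was at 75.5%, and one inside Hotair (chr15:102945501-102946000), the gene of a long noncoding RNA studied for its action on HoxD in human cells, was at 60.1%. A tile of Hoxc12 (chr15:102938501-102939000) was at 36.4%.

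The highly methylated tiles differed in how much they varied between mice. The Hoxb3 tile at 52.6% had 40.7%, 58.9% and 46.8% in hemicastrated mice and 54.7%, 54.5% and 59.7% in sham mice, a range of 19 points. The range of the 6 libraries was 18.1 points at the Hotair tile and 13.3 points at the Gm51876 tile. The Hoxc10 tile varied less and had 74.6%, 75.8% and 75.8% in hemicastrated mice and 73.0%, 74.2% and 79.5% in sham mice. In HoxB the widest range was that of the Gm11538 tile (chr11:96204501-96205000), with 28.3%, 28.0% and 41.7% in hemicastrated mice and 35.6%, 58.5% and 38.6% in sham mice, on 48 to 152 reads a library. The groups overlapped at the Hoxb3, Hoxc10 and Gm11538 tiles.

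The question of the study's design, whether hemicastration was accompanied by a different methylation, was put to clusters, tiles and gene windows. HoxA averaged 2.28% ± 0.159 in hemicastrated and 2.28% ± 0.201 in sham mice, and HoxC 5.25% ± 0.391 and 5.32% ± 0.594 (SD, n = 3 each), differences within the spread between mice (exact two-sided permutation tests, p = 1 and p = 0.9). HoxB averaged 4.43% ± 0.170 in hemicastrated and 4.75% ± 0.126 in sham mice, a difference of -0.313 points with a standard error of 0.122. HoxD averaged 3.36% ± 0.0374 in hemicastrated and 3.69% ± 0.0412 in sham mice, a difference of -0.332 points with a standard error of 0.0321. Beside these, hemicastrated minus sham was -0.225 points in the rest of the genome, with a standard error of 0.251. It was 0.147 points in the HoxB flanks and 0.0259 points in the HoxD flanks, with standard errors of 0.298 and 0.503. In HoxB and HoxD each hemicastrated mouse lay below each sham mouse, which gives p = 0.1 in the exact permutation test, the smallest that 3 against 3 can give, and an adjusted p of 0.25 over 5 comparisons. Over all 4 clusters the means were 3.59% ± 0.0889 in hemicastrated and 3.79% ± 0.112 in sham mice (SD, n = 3 each; difference -0.195, exact permutation p = 0.2).

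The HoxD difference rested on 2 tiles. Without the 2 neighbouring tiles at 15% to under 50%, an alternative chosen after seeing the data, HoxD was higher in hemicastrated mice, by 0.180 points (exact permutation p = 0.4). Over tiles under 15% alone the difference was 0.196 points in HoxD and 0.0892 points over all 4 clusters. The lower mean of HoxD was thus carried by those tiles.

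Those 2 tiles form a partly methylated stretch inside Hoxd3, a gene of the anterior paralogs. Tile chr2:74738501-74739000 (16 positions, 799 to 1213 reads a library) had 33.5%, 34.0% and 31.6% in hemicastrated mice and 40.4%, 55.0% and 61.1% in sham mice. Tile chr2:74739001-74739500 (8 positions) had 35.4%, 38.0% and 30.8% in hemicastrated mice and 37.9%, 60.1% and 66.1% in sham mice. Sham replicates 2 and 3 were high, and sham replicate 1 stood near the hemicastrated mice: the groups did not overlap at the first tile and did at the second. The first tile averaged 33% ± 1.23 in hemicastrated and 52.1% ± 10.6 in sham mice (SD, n = 3 each; difference -19.1, edgeR unadjusted p = 0.0061, adjusted p = 1 over all tiles). The second averaged 34.7% ± 3.61 in hemicastrated and 54.7% ± 14.9 in sham mice (SD, n = 3 each; difference -20.0, edgeR unadjusted p = 0.0167, adjusted p = 1). Along the 468 bp from the first to the last position, 23 of 24 positions were lower in hemicastrated mice. These are neighbours in tiles picked for their p, level or range, and many are the 2 strands of 1 CpG. They are therefore not independent and no separate support. The nearest measured tiles were low, at 6.07% in the one before the stretch, 1500 bp from its first tile, and 3.48% in the one after it, with an unmeasured tile of 500 bp between.

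A similar stretch lay in HoxA, in tile chr6:52185001-52185500, which overlaps Hoxa3, the HoxA paralog of Hoxd3, and the noncoding gene LOC115490409. Its 4 positions, 68 bp from first to last, had 13.5%, 17.9% and 19.1% in hemicastrated mice and 28.8%, 52.6% and 51.8% in sham mice, on 222 to 323 reads a library. Again sham replicates 2 and 3 were highest, and here the groups did not overlap at any of the 4 positions. Over all positions, 0.669% were lower in hemicastrated mice without overlap and by at least 10 points. The tile was picked for the smallest p of HoxA, and its positions are close neighbours, so the 4 are not separate support. The means were 16.8% ± 2.94 in hemicastrated and 44.4% ± 13.5 in sham mice (SD, n = 3 each), a difference of -27.6 points that was -35.3 points without sham replicate 1 and -23.5 points without sham replicate 2 (edgeR unadjusted p = 0.001, adjusted p = 1; limma unadjusted p = 0.0028). The nearest measured tiles were at 4.0% and 2.40%, but 7000 bp and 5500 bp away, and the DNA between was not measured.

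**Figure D4:**
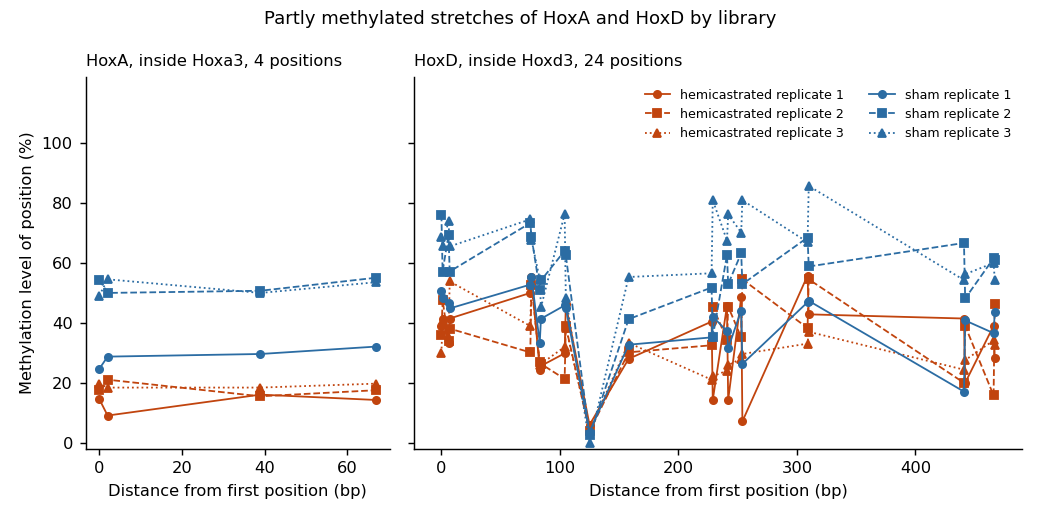
Methylation level in percent (y axis) of each position of the partly methylated stretches inside Hoxa3 and Hoxd3 against the distance in bp from the first position (x axis), 1 line per library, hemicastrated in orange and sham in blue. Sham replicates 2 and 3 run above the other 4 libraries along most of both stretches; sham replicate 1 lies near the hemicastrated libraries in Hoxd3.

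These stretches belong to the 9 Hox tiles at 15% to under 50%. Averaged over the 9, the level was 28.0%, 26.2% and 30.5% in hemicastrated mice and 30.8%, 43.8% and 40.7% in sham mice. Without the 3 tiles just described it was 28.3%, 24.4% and 32.1% in hemicastrated mice and 28.4%, 37.8% and 31.2% in sham mice, and the groups overlapped. The other 5440 tiles of this class had 29.2%, 28.8% and 26.6% in hemicastrated mice and 27.4%, 30.7% and 29.6% in sham mice. The mean was lower in hemicastrated mice in 7 of the 9 Hox tiles, against 53.8% of all tiles of this class.

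Germ cells and somatic cells of the testis differ in methylation, and 10 genes whose starts are methylated in somatic tissues and unmethylated in germ cells were read as a gauge of their shares. Windows were measured for 7 of them, at 8.18% to 24.6%, with none near 0. Their mean level was 20.7%, 16.5% and 19.7% in hemicastrated mice and 17.5%, 17.5% and 14.4% in sham mice, with groups that overlapped. The part of the makeup of the tissue in the values of the Hox stretches was not tested.

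Across all 180 Hox tiles, edgeR's quasi-likelihood test called none at an adjusted p of 0.05, as it called none of 71149 tiles tested in the genome (0% called). limma called 0 as well. An unadjusted p under 0.05 was found for 11 Hox tiles by edgeR (6.11%), 8 lower and 3 higher in hemicastrated mice, beside 4.27% of all tiles (2.22% lower, 2.05% higher), and for 11 by limma, beside 4.99%. By cluster, edgeR's 11 were 4 in HoxA, 1 in HoxB, 1 in HoxC and 5 in HoxD, and limma's were 2 in HoxA, 3 in HoxB, 1 in HoxC and 5 in HoxD. Groups did not overlap at 11 tiles that were lower (4.99% of all tiles) and 7 that were higher (4.61%). The mean was lower in hemicastrated mice at 80 Hox tiles and higher at 100, with a median difference of 0.0513 points in Hox tiles and -0.0214 points over all tiles.

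The other tiles with the smallest p in each cluster were nearly unmethylated in both groups. In HoxC, tile chr15:103034501-103035000 at Hoxc4 had 0.184%, 0.243% and 0.455% in hemicastrated mice and 0.852%, 2.44% and 0.906% in sham mice (edgeR unadjusted p = 0.0022, adjusted p = 1). The groups did not overlap, but both were within a few points of 0, and the difference of -1.10 points was -0.585 points without sham replicate 2. In HoxB, tile chr11:96311501-96312000 in Hoxb3 had 3.58%, 3.75% and 3.23% in hemicastrated mice and 7.61%, 4.13% and 5.19% in sham mice (edgeR unadjusted p = 0.0449, adjusted p = 1). Tiles that were higher in hemicastrated mice included chr6:52170001-52170500 in Hoxa3, with 7.33%, 10.9% and 5.73% in hemicastrated and 5.59%, 4.11% and 3.62% in sham mice (edgeR unadjusted p = 0.0381, adjusted p = 1). In HoxD, tile chr2:74698501-74699000 in Hoxd9 was 0.434 points higher (edgeR unadjusted p = 0.0443, adjusted p = 1).

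Single positions whose groups did not overlap and whose means were at least 10 points apart numbered 15 of 2790 Hox positions (0.538%), 14 lower and 1 higher in hemicastrated mice, beside 0.993% of all positions (0.669% lower, 0.324% higher). Of the 14, 9 were in HoxD and 4 in HoxA. The 4 of HoxA, and those of HoxD except chr2:74687905, lay in the partly methylated stretches inside Hoxa3 and Hoxd3 described above. The count of lower positions thus mostly repeats those stretches and is not a further observation across the clusters. All these positions were counted and not tested.

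Of the 39 Hox genes, 32 had a measured window, 1000 bp either side of the gene start (19 genes) or, where the tables used give no start, of whichever gene boundary had more positions listed (13 genes). The other genes had too few positions near their starts or boundaries to be counted. Where a gene had several starts, the one furthest upstream was used, so a level need not describe the other starts. The Hoxa3 window, for one, was centred on chr6:52213067, in a gene that reaches to chr6:52169059. The level was under 5% at 29 of the 32 and under 1% at 15, with a median of 1.07%, beside 77.9% under 5% and a median of 0.616% over all 14527 windows. Gene windows were thus low in general, and the Hox median was not below that of all windows.

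By place in the cluster, the median was 1.29% for 6 measured anterior genes (paralog groups 1 to 3), 1.94% for 12 central ones (groups 4 to 8) and 0.806% for 14 posterior ones (groups 9 to 13). All 4 members of group 13, which act at the tail end of the body axis and in the limb tips, were measured: Hoxa13 at 0.759%, Hoxb13 at 0.920%, Hoxc13 at 0.733% and Hoxd13 at 0.743%. Among anterior genes, which pattern the hindbrain and neck, Hoxd3 was at 0.512%, Hoxd1 at 0.598%, Hoxb2 at 1.02%, Hoxa3 at 1.55%, Hoxb1 at 1.91% and Hoxa2 at 3.38%. Central genes held the highest windows, with Hoxb6, read at a gene boundary, at 4.15%, Hoxa7 at 5.65% and Hoxa6 at 6.55%. The median was 2.40% for HoxA genes, 0.969% for HoxB, 1.39% for HoxC and 0.678% for HoxD, so genes of HoxA had the highest median although the cluster as a whole was lowest. Windows lay at a gene start for 8 of 9 HoxA, 2 of 8 HoxB, 1 of 7 HoxC and 8 of 8 HoxD genes. The share was 5 of 6 for anterior, 7 of 12 for central and 7 of 14 for posterior genes. A boundary can be either end of a gene, so these medians compare partly unlike sites.

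Hoxd4 stood apart, as the only Hox gene window at 15% or more. It had 76.4%, 80.4% and 91.7% in hemicastrated mice and 87.0%, 88.2% and 98.0% in sham mice, on 3 positions and 49 to 93 reads a library. The groups overlapped, and the difference was -8.26 points (edgeR unadjusted p = 0.181, adjusted p = 0.999). Without 1 library it lay between -12.7 points (hemicastrated replicate 3 left out) and -4.78 points (sham replicate 3 left out), and its direction turned, to 0.149 points, with a minimum of 5 reads. The least methylated window was that of Hoxd8, 59 positions at 0.443%, which is below the apparent methylation of mitochondrial DNA in any library.

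**Figure D5:**
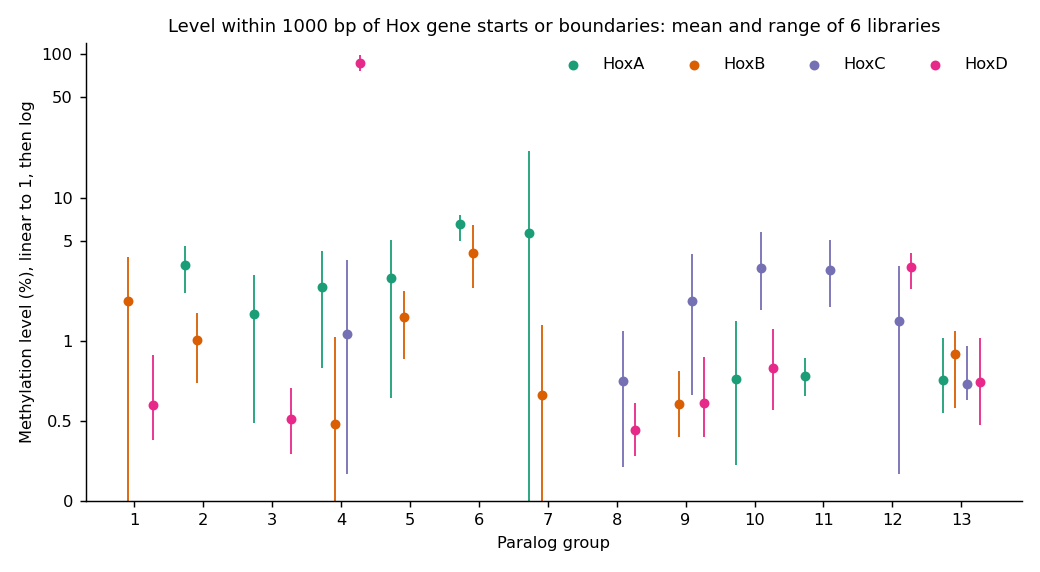
Methylation level in percent (y axis, linear up to 1 and logarithmic above) within 1000 bp of the starts or boundaries of 32 Hox genes, by paralog group (x axis) and cluster (colour). Points are means and lines ranges of the 6 libraries; Hoxd4, at 86.9%, is the only one above 15%.

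No Hox gene window passed the test between groups (edgeR adjusted p = 0.999 for those named here, 0% called over all windows), by limma as well. An unadjusted p under 0.05 was found for 3 windows by edgeR, beside 4.18% of all windows, and for 2 by limma, beside 4.81%. Of the 3, 2 were lower in hemicastrated mice (1.65% of all windows) and 1 was higher (2.52%). Groups did not overlap at 2 windows that were lower, Hoxb6 and Hoxd8 (3.93% of all windows), and at 1 that was higher, Hoxa13 (5.65%). Hoxa5 had 2.62%, 0.642% and 2.51% in hemicastrated mice and 5.05%, 3.86% and 1.86% in sham mice (edgeR unadjusted p = 0.0462, adjusted p = 0.999). Hoxc4 had 0.869%, 0.169% and 0.558% in hemicastrated mice and 0.822%, 3.67% and 0.630% in sham mice (edgeR unadjusted p = 0.0043, adjusted p = 0.999), and its difference of -1.18 points was -0.194 points without sham replicate 2. Groups overlapped at both genes. The Hoxc4 window contains the tile chr15:103034501-103035000 described above, so its low p largely repeats that tile. Hoxa7 had 1.25%, 21.1% and 7.0% in hemicastrated mice and 3.33%, 1.25% and 0% in sham mice, on 5 positions (edgeR unadjusted p = 0.0363, adjusted p = 0.999), and its difference of 8.25 points was 2.6 points without hemicastrated replicate 2. Hoxb6 had 2.61%, 2.34% and 3.01% in hemicastrated mice and 6.45%, 4.86% and 5.61% in sham mice, with no overlap on 4 positions (edgeR unadjusted p = 0.163, adjusted p = 0.999). In all, 13 windows had a lower mean in hemicastrated mice and 19 a higher one.

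Noncoding genes of the clusters were likewise low in most windows, the highest being Gm51876 at 21.3%. The Mir196b window was at 0.962% over 48 positions, and that of Mir615 at 8.25% over 10. That of Mir196a-1, which encodes the same seed as Mir196b, was at 15.9% over 6 positions. It overlaps tile chr11:96264001-96264500, whose 5 positions averaged 3.17%. The 15.9% thus came mostly from methylation outside that tile and does not describe the window as a whole. Mir196a-1 had 17.4%, 11.9% and 16.1% in hemicastrated mice and 15.8%, 17.5% and 16.9% in sham mice, and the groups overlapped. Windows of Mir10a, Mir10b and Mir196a-2 were not measured. Among long noncoding RNA genes, Hotairm1 was at 9.52% and Hoxaas3 at 9.97%, whereas Haglr, in HoxD, was at 0.598%, Hoxa11os, which lies opposite Hoxa11, at 0.690% and Hoxb3os at 0.706%. Hotair was at 0.824% in its window, which lies at a gene boundary that need not be its start, although the tile inside the gene was at 60.1%. The windows of Hotairm1, Hoxaas3, Haglr and the microRNA genes were likewise at a boundary. That of Haglr holds the same 61 positions as that of Hoxd1, so the values are 1 observation. Evx2, the homeobox gene beside Hoxd13, was at 2.11%.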

How the data were processed

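Each of 6 right testes gave 1 RRBS library. Per the labels' protocols, DNA was digested with MspI, size-selected, bisulfite-converted, amplified by PCR and sequenced. Per the submitters' processing notes, Bismark, TopHat2 2.0.11 and GRCm38 were used, while steps such as trimming or removal of duplicates are not stated there. The authors deposited methylated and unmethylated counts per cytosine position, raw and without normalization. The deposited percent is methylated reads over all reads. Strand and sequence context are not in the files, and the 2 strands of a CpG count as separate positions.

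From these, positions with at least 10 reads in all 6 libraries on chromosomes 1 to 19, X and Y were kept. A level is the unweighted mean of percent values, in tiles of 500 bp counted from position 1 and gene windows of 1000 bp either side, each with at least 3 positions. Summed counts were tested with edgeR 4.0.16 in R 4.3.3, with a term per library and 1 for group, using quasi-likelihood and Benjamini-Hochberg adjustment (threshold 0.05) over all 71149 tiles or all 14511 windows tested. limma 3.58.1 was run on log2 of methylated over unmethylated counts, 1 being added to both. Features without variation in methylation were left out. The fits were tested on simulated data. Cluster levels were compared by exact permutation tests. Genes, starts and sequences came from RefSeq tables of GRCm38.p6, with starts for 27025 of 49943 genes. Windows were centred on the start furthest upstream. Low-depth limits cover counting error only, since PCR copies are not independent molecules.

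Named tiles were, per cluster, those with the smallest p in each direction, the 3 highest, the widest-ranging and the longest run under 15%. Named genes were, per cluster, those with the smallest p in each direction; Hox and noncoding genes could all be named with a level. The Hoxb3 tile at 52.6% and the neighbouring tiles of the partly methylated stretches were chosen after their values were seen. The clusters, lists and rules were chosen with earlier results of these data known. Alternatives were other read minimums, merged strands, weighting by reads, a wider window, leaving out each library, a replicate block, and the 2 choices made after seeing the data.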

Additional observations from a re-analysis of the deposited data

How the results depend on the processing

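Levels of the clusters below their flanks and the rest of the genome kept their direction under every alternative run, and calls of Hox tiles, Hox gene windows and the regulator lists stayed at 0. Leaving out each library in turn left 5 libraries, whose smallest exact p is 0.0625, and the differences then ran from -8.99 to -8.76 points for HoxA against flanks, -13.7 to -13.5 for HoxB, -13.3 to -12.8 for HoxC, -7.27 to -6.94 for HoxD and -11.0 to -10.8 for all. Against the rest of the genome they ran from -27.7 to -27.5 for HoxA, -25.4 to -25.2 for HoxB, -24.7 to -24.5 for HoxC, -26.4 to -26.3 for HoxD and -26.3 to -26.1 for all. Between clusters they ran from 2.23 to 2.39 for HoxB minus HoxA, 2.84 to 3.12 for HoxC minus HoxA, 1.18 to 1.31 for HoxD minus HoxA, 0.609 to 0.781 for HoxC minus HoxB, -1.09 to -1.02 for HoxD minus HoxB and -1.86 to -1.66 for HoxD minus HoxC. HoxC minus HoxB was 0.421 at 5 reads (p = 0.0625 in the exact sign-flip permutation test), -1.06 at 20 reads and -0.239 weighted by reads.

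Several group differences changed sign. Hemicastrated minus sham in HoxA was -0.0836 points at 20 reads, -0.0427 with neighbouring positions merged, -0.172 weighted by reads and between -0.0747 and 0.115 without 1 library. In HoxC it was 0.25 at 20 reads, 0.00281 without positions spanning 40 points or more, 0.0324 over tiles under 15% and between -0.273 and 0.271 without 1 library. HoxD became 0.180 without its 2 partly methylated tiles and 0.196 over tiles under 15%, as all 4 clusters became 0.0892 over such tiles. The difference of -8.26 points at Hoxd4 was 0.149 at 5 reads, and that at Hoxb2 -0.146 at 20 reads, -0.0115 with merged positions and between -0.214 and 0.191 without 1 library. At Hoxc9 it ran from -0.198 to 1.5. Among the tiles it ran from -1.94 to 2.02 at the tile far from Hoxb13, -5.82 to 0.652 at Hoxb9, -7.49 to 1.53 at Hotair, -1.44 to 1.79 at Hoxc10 and -1.01 to 3.69 at the Hoxd4 tile, at 10.3%. The position count of 15 was 34 at 5 points, 9 without positions spanning 40 points or more and 17 to 35 without 1 library. The cause was not tested in any of these.

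Mice with the same replicate number were not taken as pairs: their deviations correlated at 0.0581, 0.0786 and 0.0329, although each correlated best with its own number. With a replicate block, 0 Hox tiles and 0 Hox gene windows passed, 5 tiles instead of 8 had an unadjusted p under 0.05 and a lower level, and the HoxD difference of -0.332 points had an exact p of 0.25, the smallest that 3 blocks allow. Depth limits windows such as Hoxd4, read 49 to 93 times in a library.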

Other observations

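Genes around the Hox system were read from the same windows. Of 9 genes of Hox cofactors of the Pbx, Meis and Pknox families, 7 were measured, with a median of 0.607%, and 0 passed edgeR's test or limma's. Of 29 Polycomb genes, 28 were measured, all of them under 5%, with a median of 0.614% and 0 passing either test. Their mean level was 0.776%, 0.787% and 0.666% in hemicastrated mice and 0.648%, 0.622% and 0.657% in sham mice. The groups did not overlap, but their nearest libraries were at 0.666% and 0.657%, and no test was run on this mean. The highest Polycomb window, Ring1, is named after its value was seen. Ring1 had 2.79%, 3.03% and 2.78% in hemicastrated mice and 1.79%, 1.27% and 2.15% in sham mice. Over the 28 genes the median difference was 0.0226 points, with 16 genes higher and 12 lower. An unadjusted p under 0.05 by edgeR was found for 1 cofactor, Pknox1, and 1 Polycomb gene, Phc2, beside 4.18% of all windows. Phc2 encodes a subunit of Polycomb repressive complex 1. Phc2 had 1.59%, 0.989% and 0.657% in hemicastrated mice and 0.421%, 0.663% and 0.518% in sham mice (edgeR adjusted p = 0.999), and the groups overlapped.

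Of 31 other homeobox genes, of which Evx2 reaches into the HoxD region, 31 were measured and 29 were under 5%, with a median of 0.749%, so low windows were not limited to Hox genes. The highest of them, Dlx6, was at 83.9% and is named after its value was seen. None passed edgeR's test or limma's. By each, 2 had an unadjusted p under 0.05, beside 4.18% of all windows by edgeR and 4.81% by limma. They were Evx1, next to the HoxA cluster, with Dlx5 by edgeR, and Evx1 with Nkx2-1 by limma. Evx1 was at 9.95% and differed by -1.64 points, hemicastrated minus sham (edgeR unadjusted p = 0.00634, adjusted p = 0.999). Its groups overlapped, with hemicastrated replicate 1 at 10.1% and sham replicate 2 at 9.99%. Of 15 trithorax and demethylase genes and 17 retinoic acid genes, 12 each were measured, with medians of 0.618% and 0.736%, and 0 passed either test, with 0 at an unadjusted p under 0.05 by edgeR. The window of Cd3e, the one measured gene of 7 of other somatic lineages, was at 44.4%.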
